A study of Mus musculus with 18 samples.

Results

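The maturation of wild-type (WT) cerebellar promoters was followed in 8 of the 18 samples of the series. These are the WT libraries of 2 histone marks, 2 per mark at postnatal day 6 (P6) and 2 per mark at postnatal day 22 (P22). The members are the 24 promoters of the authors' table that have a value in all 8 libraries, of 24 in the table. Trimethylated lysine 4 of histone H3 (H3K4me3) and histone H3 acetylated at lysines 9 and 14 (H3K9/14ac) were mapped by chromatin immunoprecipitation sequencing. The tissue was cerebellum of mice labelled WT. The sources used here name no strain, sex or Cre status for these mice, nor the pooling of animals. The series also holds libraries from P22 conditional knockouts (cKO) of Chd4, a chromatin remodeler of the NuRD complex. In the comparison of ages they entered only the filter and the estimate of spread, in which the 6 libraries of a mark shared 1 fit. They were also used to describe how replicates differed. Of 32 marker genes listed for cerebellar cell types, 1, Nhlh1, is in the table, so the cell make-up of the tissue was not checked. The labels do not state whether the libraries of a group are different animals. The p-values therefore reflect only how far these libraries differ, and that may be technical.

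H3K4me3 sits around the transcription start sites (TSSs) of active and poised genes, and acetylation of histone H3 accompanies active ones. Between the first and the fourth postnatal week, granule neuron precursors of the mouse cerebellum leave the cell cycle, migrate inward and form synapses with mossy fibres. Promoters of genes used by newborn neurons are switched off over this time, and those of mature neurons gain active marks. The study asked how such promoters are decommissioned. Chromatin came from whole cerebella, so fewer cells of a type and less of a mark per cell cannot be told apart.

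RefSeq promoter windows on build GRCm38.p6, from 250 bases before to 50 bases after an annotated start, were found for 14 of the 23 promoters described here. No window was found for Arc, Cpne6, Cpne7, Gnb3, Ripk4, Scn3b, Sfrp4, Smoc1 and clcf. CpG dinucleotides are in capitals because H3K4me3 is known to follow CpG-rich starts. The sequences show the promoters with the largest falls of H3K4me3 (Nhlh1 and Nt5dc2, the latter with 2 annotated starts), a promoter that kept a high score (Timp2) and a promoter near 0 at both ages (Casq1). Nhlh1 lies at chr1:172057547-172057846 on the minus strand, Nt5dc2 at chr14:31130839-31131138 and chr14:31134486-31134785 on the plus strand, Timp2 at chr11:118355362-118355661 and Casq1 at chr1:172219846-172220145, both on the minus strand. All are printed 5′ to 3′ in the direction of the gene.
Nhlh1: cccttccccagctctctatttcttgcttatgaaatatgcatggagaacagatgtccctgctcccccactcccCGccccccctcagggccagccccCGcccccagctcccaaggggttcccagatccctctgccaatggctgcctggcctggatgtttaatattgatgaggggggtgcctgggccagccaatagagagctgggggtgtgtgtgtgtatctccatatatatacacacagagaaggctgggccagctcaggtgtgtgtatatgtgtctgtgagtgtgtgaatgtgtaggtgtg
Nt5dc2, upstream start: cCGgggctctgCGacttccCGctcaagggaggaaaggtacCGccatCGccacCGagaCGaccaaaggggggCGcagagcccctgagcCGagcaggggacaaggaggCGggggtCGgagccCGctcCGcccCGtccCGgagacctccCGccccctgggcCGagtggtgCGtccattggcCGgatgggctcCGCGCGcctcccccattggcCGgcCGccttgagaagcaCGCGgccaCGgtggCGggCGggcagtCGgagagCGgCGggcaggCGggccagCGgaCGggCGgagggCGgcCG
Nt5dc2, downstream start: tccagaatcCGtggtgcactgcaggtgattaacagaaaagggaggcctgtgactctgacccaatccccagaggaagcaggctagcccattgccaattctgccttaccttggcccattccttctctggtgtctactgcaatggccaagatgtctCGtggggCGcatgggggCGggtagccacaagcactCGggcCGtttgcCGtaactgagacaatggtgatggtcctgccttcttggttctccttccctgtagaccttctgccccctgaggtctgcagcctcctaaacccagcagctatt
Timp2: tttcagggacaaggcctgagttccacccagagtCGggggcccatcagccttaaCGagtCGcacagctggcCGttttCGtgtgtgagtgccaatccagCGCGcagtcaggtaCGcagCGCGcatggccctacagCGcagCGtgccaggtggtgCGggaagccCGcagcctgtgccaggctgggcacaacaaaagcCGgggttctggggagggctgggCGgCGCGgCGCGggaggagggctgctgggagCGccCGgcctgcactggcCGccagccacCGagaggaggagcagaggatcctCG
Casq1: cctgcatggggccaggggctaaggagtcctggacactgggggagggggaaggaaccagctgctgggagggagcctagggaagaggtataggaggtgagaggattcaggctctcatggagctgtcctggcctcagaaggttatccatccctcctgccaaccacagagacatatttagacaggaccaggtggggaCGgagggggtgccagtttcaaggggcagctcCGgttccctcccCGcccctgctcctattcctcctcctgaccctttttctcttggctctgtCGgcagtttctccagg
The Nhlh1 window holds 2 CpG dinucleotides, the upstream Nt5dc2 window 38 and the downstream one 7, where the median of all RefSeq windows is 7. The table's own positions are on another build (mm9, per the submitters' processing notes), so which annotated start a score belongs to was not settled for genes with several.

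The values are scores per TSS with 2 decimals, and how they were made is not stated in the sources used here. The read depth is unknown. H3K4me3 scores in the 8 libraries ran from -0.72 to 56.3 and H3K9/14ac scores from -0.05 to 21.7. Within a library the scores of 8 to 9 promoters were under 1 for H3K4me3, and 4 to 9 for H3K9/14ac. Replicate 2 was generally the higher library: its median log2 difference from replicate 1 was 0.29 at P6 and 0.27 at P22 for H3K4me3, and 0.16 and 0.25 for H3K9/14ac. Changes are given on the log2(score + 2) scale, P22 minus P6. This scale understates the change of low promoters.

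H3K4me3 fell from P6 to P22 at 3 of 19 promoters tested (15.8%) and rose at 2 (10.5%), with limma adjusted p under 0.05. H3K9/14ac fell at 2 of 23 (8.7%) and rose at 1 (4.35%). These shares are also the background, since all promoters of the table are members. The median change over the promoters tested was 0.09 for H3K4me3 and -0.03 for H3K9/14ac, with 11 of the promoters tested higher and 8 lower by sign in H3K4me3, and 11 higher and 12 lower in H3K9/14ac. The called promoters were Nhlh1, Nt5dc2 and Elavl2 on the losing side, and Arc and, in H3K4me3 alone, 1 promoter whose own values are not given here on the gaining side. That promoter stayed in every fit and count. The size of a change decided the call. The smallest H3K4me3 change that passed was 1.43 and the largest that did not was 1.02, while the standard error was 0.43 for every promoter. For H3K9/14ac these sizes were 0.93 and 0.74, with a standard error of 0.28. The sources used here do not say how the genes of the table were chosen, so the counts are not genome-wide shares. When each library was centred on the median of all promoters, the split was 5 lower and 8 higher for H3K4me3 and 5 lower and 5 higher for H3K9/14ac.

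**Figure D1:**
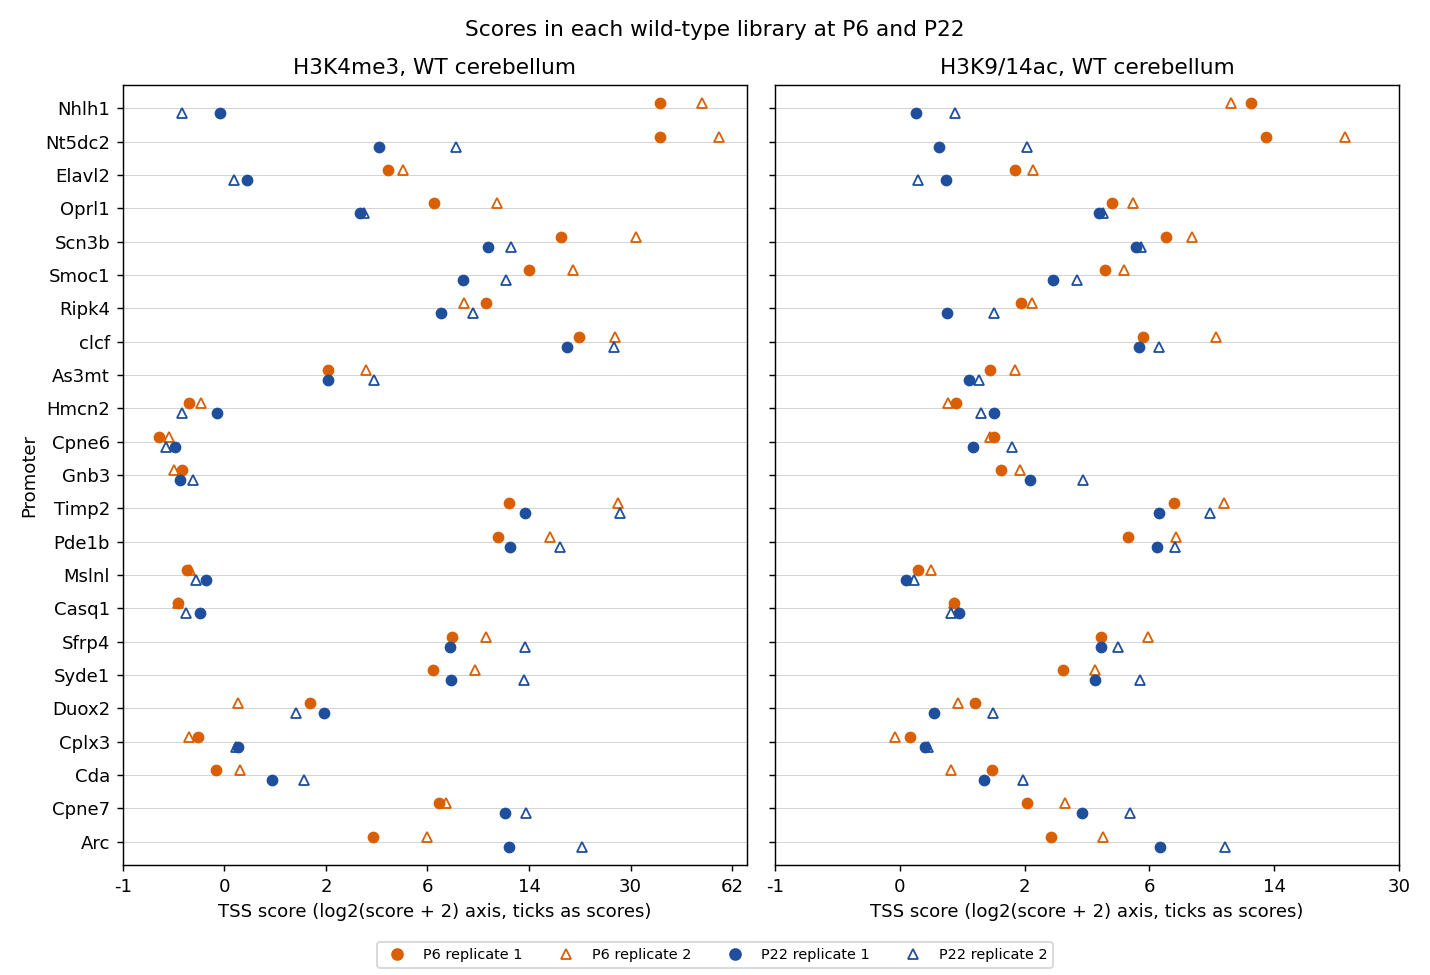
Score of each of 23 promoters in each WT library, H3K4me3 on the left and H3K9/14ac on the right, on a log2(score + 2) axis with ticks labelled as scores; orange is P6, blue is P22, filled circles are replicate 1 and open triangles replicate 2. Promoters are ordered by the H3K4me3 change: Nhlh1 at the top dropped from 37.0 and 50.1 to -0.06 and -0.50, and Arc at the bottom rose from 3.50 and 5.98 to 11.9 and 20.9.

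Both genes grouped under neuronal differentiation, Nhlh1 and Elavl2, were called lower in H3K4me3, and 1 of 2, Nhlh1, in H3K9/14ac. The shares called lower over all promoters tested were 15.8% and 8.7%. The group was formed with earlier results of these data known, so its count is not a result about such genes. Nhlh1 encodes a basic helix-loop-helix transcription factor of newly postmitotic neurons. The table lists it on chromosome 1 at position 173987694. Its H3K4me3 score was 37.0 and 50.1 in the P6 libraries and -0.06 and -0.50 in the P22 libraries. It was the promoter with the second highest mean score at P6 and ranked 19 of 24 at P22, with no overlap between the ages. The change was -4.72 (95% interval -5.58 to -3.87, limma adjusted p = 1.85e-14). H3K9/14ac at Nhlh1 was 12.0 and 10.6 at P6 and 0.19 and 0.72 at P22, a change of -2.45 (95% interval -3.01 to -1.88, limma adjusted p = 1.34e-11). In each mark the promoter thus went from near the top of the table to the level of promoters without the mark. Nhlh1 stayed called in both marks with every library left out, at H3K4me3 changes between -4.93 and -4.51.

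Elavl2 encodes a neuronal RNA-binding protein that stabilises transcripts. The table places Elavl2 on chromosome 4 at position 91066675. Its H3K4me3 score was 4.11 and 4.75 at P6 and 0.34 and 0.14 at P22, a change of -1.52 (95% interval -2.37 to -0.67, limma adjusted p = 0.00354). This was a loss from a low level: at P6 Elavl2 ranked 14 of 24. H3K9/14ac was 1.80 and 2.18 at P6 and 0.59 and 0.21 at P22. Again the ages did not overlap, but the change of -0.74 had limma adjusted p = 0.0623. The H3K4me3 call was lost without P6 replicate 2 (limma adjusted p = 0.0545) and without P22 replicate 2 (limma adjusted p = 0.0572), where the changes were -1.45 and -1.46. It was also lost with a pseudocount of 20 (limma adjusted p = 0.209) and without the log (limma adjusted p = 0.415). The H3K9/14ac change passed with a pseudocount of 1 (limma adjusted p = 0.0116), with only the WT libraries in the fit (limma adjusted p = 0.0106) and with libraries centred on the median of all promoters (limma adjusted p = 0.0298).

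Among the enzymes of metabolism, 1 of 3 was called lower in each mark and 0 of 3 higher. Of all promoters tested, 15.8% were called lower in H3K4me3 and 8.7% in H3K9/14ac. The called promoter was Nt5dc2, which encodes a protein with a 5′-nucleotidase domain. The table lists it on chromosome 14 at position 31944830. H3K4me3 at Nt5dc2 was 37.2 and 56.3 at P6, the highest mean of the table, and 3.74 and 7.70 at P22. The change was -2.68 (95% interval -3.53 to -1.82, limma adjusted p = 4.95e-07). H3K9/14ac fell from 13.3 and 21.7 to 0.49 and 2.05, a change of -2.58 (95% interval -3.14 to -2.02, limma adjusted p = 3.53e-12). Unlike Nhlh1, Nt5dc2 kept an H3K4me3 score above 3 in both P22 libraries, and ranked 12 of 24 there in H3K4me3 and 15 in H3K9/14ac. Whether the remaining score differs between these promoters was not tested. Its fit used the 4 WT libraries of each mark alone, since the table lists no cKO values for Nt5dc2. With the spread of each promoter taken alone it was not called (ordinary t-test, adjusted p = 0.143 for H3K4me3 and 0.245 for H3K9/14ac). On the score without the log it was not called either (limma adjusted p = 0.0969 and 0.0627).

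Cda and As3mt, the other enzymes, stayed low at both ages. Cda encodes cytidine deaminase of pyrimidine salvage. Its H3K4me3 score was -0.11 and 0.23 at P6 and 0.77 and 1.45 at P22. The P22 libraries were the higher ones, but the change of 0.59 had limma adjusted p = 0.326, and Cda reached the filter only with cKO libraries. For As3mt, the arsenite methyltransferase gene, H3K4me3 was 2.06 and 3.26 at P6 and 2.05 and 3.57 at P22, a change of 0.04 (95% interval -0.81 to 0.89). H3K9/14ac at As3mt was 1.30 and 1.80 at P6 and 0.94 and 1.11 at P22, without overlap (change -0.23, limma adjusted p = 0.644).

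Of the 8 genes of neuronal activity, synapse, signalling and excitability, 7 were tested for H3K4me3 and 8 for H3K9/14ac. In each mark 1 was called higher and 0 lower, where 10.5% and 4.35% of all promoters tested were called higher. With 1 call, the count is no result about the group. The called gene was Arc, an immediate early gene whose product acts at active synapses. The table lists Arc on chromosome 15 at position 74503000. H3K4me3 at Arc was 3.50 and 5.98 at P6 and 11.9 and 20.9 at P22, a change of 1.43 (95% interval 0.58 to 2.28, limma adjusted p = 0.00543). H3K9/14ac was 2.62 and 4.17 at P6 and 6.48 and 10.2 at P22, a change of 0.93 (95% interval 0.37 to 1.49, limma adjusted p = 0.0116). Both P22 libraries lay above both P6 libraries in each mark. Arc moved from rank 13 to rank 3 in H3K4me3 and from rank 11 to rank 1 in H3K9/14ac. The H3K4me3 call was lost without P6 replicate 1 (change 1.16, limma adjusted p = 0.126) and without P22 replicate 2 (change 1.07, limma adjusted p = 0.182). Leaving out the same replicates of H3K9/14ac lowered its change to 0.72 and 0.67 (limma adjusted p = 0.384 and 0.411). Without the filter the H3K4me3 change of Arc had limma adjusted p = 0.0525. The calls of both marks were lost with the spread of each promoter taken alone (ordinary t-test, adjusted p = 0.26 for H3K4me3 and 0.439 for H3K9/14ac). They were also lost without the log (limma adjusted p = 0.75 and 0.89) and with a pseudocount of 20 (limma adjusted p = 0.287 and 0.493).

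The other members of this group went both ways by amounts that did not pass. Oprl1, the nociceptin receptor gene, had H3K4me3 scores of 6.38 and 10.8 at P6 and 3.04 and 3.20 at P22 (change -1.02, limma adjusted p = 0.0645). Scn3b, a sodium channel beta subunit gene, had 17.9 and 31.2 at P6 and 10.1 and 12.2 at P22 (change -0.97, limma adjusted p = 0.0715). Cpne7, a gene of the calcium-dependent membrane-binding copines, had 6.64 and 7.06 at P6 and 11.6 and 13.7 at P22 (change 0.72, limma adjusted p = 0.227). In each of these 3 the ages did not overlap. With only the WT libraries of H3K4me3 in the fit, Oprl1 and Scn3b passed (limma adjusted p = 0.0294 and 0.0379). H3K9/14ac at Oprl1 was 4.51 and 5.29 at P6 and 4.05 and 4.18 at P22, a smaller difference of -0.17 (95% interval -0.73 to 0.39). At Scn3b the H3K9/14ac change was -0.33 and at Cpne7 0.49, from 2.05 and 3.00 to 3.51 and 5.20 (limma adjusted p = 0.566 and 0.341).

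Pde1b, a calcium- and calmodulin-dependent phosphodiesterase gene, kept high scores: H3K4me3 was 10.9 and 16.4 at P6 and 12.0 and 17.7 at P22. Its change was 0.11 (95% interval -0.75 to 0.96). Syde1, a gene of a GTPase-activating protein, had H3K4me3 scores of 6.32 and 9.05 at P6 and 7.41 and 13.5 at P22, and the ages overlapped. The complexin gene Cplx3 went from -0.33 and -0.43 to 0.19 and 0.16 in H3K4me3, and from 0.12 and -0.05 to 0.30 and 0.34 in H3K9/14ac. It reached the filter of each mark only with cKO libraries. The copine gene Cpne6 had no H3K4me3 score above -0.57 and was not tested. Its H3K9/14ac scores lay between 1.01 and 1.72 at both ages.

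**Figure D2:**
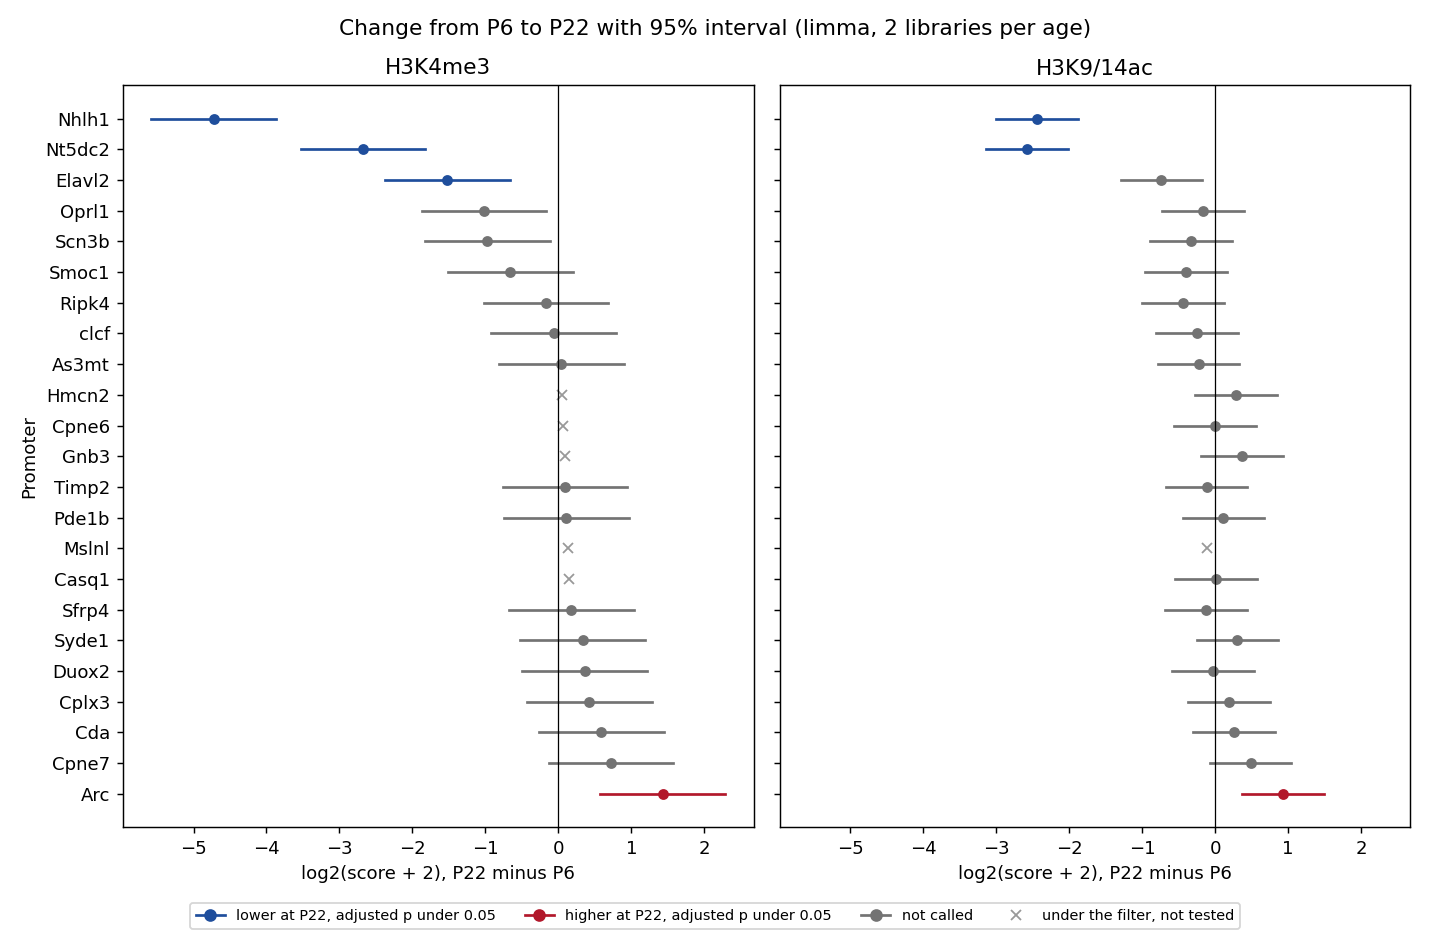
Change from P6 to P22 on the log2(score + 2) scale with its 95% interval from limma, H3K4me3 on the left and H3K9/14ac on the right, for 23 promoters. Blue marks calls lower at P22, red calls higher, grey promoters that were not called and crosses those under the filter; Nhlh1 and Nt5dc2 are blue and Arc red in both panels, while Elavl2 is blue in H3K4me3 alone.

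Of the 4 genes of matrix, secreted and cytokine proteins, 3 were tested for H3K4me3 and 4 for H3K9/14ac, and 0 were called in either direction. Timp2, a metalloproteinase inhibitor gene, had the widest gap between replicates among these: its H3K4me3 score was 11.9 and 27.3 at P6 and 13.6 and 27.8 at P22. Replicates of 1 age were thus much farther apart than the ages were, and the change was 0.09 (95% interval -0.76 to 0.95). The promoter listed as clcf had 20.5 and 26.8 at P6 and 18.7 and 26.6 at P22, a change of -0.07 (95% interval -0.92 to 0.79). Smoc1, a gene of a calcium-binding matrix protein, had 14.0 and 19.6 at P6 and 8.20 and 11.7 at P22 (change -0.66, limma adjusted p = 0.273). Its H3K9/14ac went from 4.24 and 4.94 to 2.68 and 3.35 (change -0.40, limma adjusted p = 0.472), so in each mark the ages did not overlap. Sfrp4, a modulator of Wnt signalling whose product is also secreted, was on none of the lists used and is not in the count of 4. It had H3K4me3 scores of 7.48 and 9.94 at P6 and 7.33 and 13.6 at P22, with overlap. Its H3K9/14ac was 4.12 and 5.94 at P6 and 4.11 and 4.73 at P22.

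The genes best known from muscle, retina and epithelia gave 0 calls, but few were tested. For H3K4me3 these were 0 of 2 genes of muscle and retina and 2 of 3 of epithelia. For H3K9/14ac they were 2 of 2 and 2 of 3. Casq1, a calcium-storage protein gene of skeletal muscle, had H3K4me3 scores of -0.54 in both P6 libraries and of -0.30 and -0.46 at P22. Gnb3, a G protein subunit gene of retinal cells, stayed between -0.58 and -0.38. Neither was tested for H3K4me3, but both were for H3K9/14ac, with changes of 0.01 and 0.37. Casq1 had WT scores of 0.65 to 0.78 in that mark and reached the filter only with cKO libraries. Ripk4, a kinase gene of keratinocytes, had H3K4me3 scores of 9.92 and 8.26 at P6 and 6.80 and 8.95 at P22. At Ripk4 the acetylation was low and did not overlap between the ages: H3K9/14ac was 1.91 and 2.16 at P6 and 0.60 and 1.37 at P22 (change -0.45, limma adjusted p = 0.384). The dual oxidase gene Duox2 had H3K4me3 scores of 1.59 and 0.19 at P6 and 1.96 and 1.27 at P22, with overlap. Mslnl, a gene related to mesothelin, had scores between -0.45 and 0.38 in all 8 libraries and was tested in neither mark. Its listed strand is opposite to the RefSeq one, whereas the other 13 promoters with a RefSeq window have the same strand in both.

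A promoter that was not called had not thereby kept its mark. The 95% interval of a change reached 0.85 to either side for H3K4me3 and 0.56 for H3K9/14ac. Intervals lay wholly between -1 and 1, a change by less than a factor of 2 on this scale, at 4 of the 14 promoters not called for H3K4me3. These were Timp2, Pde1b, clcf and As3mt. For H3K9/14ac this held at 16 of 20 promoters not called, among them Casq1 and Cplx3, which passed that filter only through cKO libraries. The order of the promoters largely persisted: the Spearman coefficient between mean scores at P6 and P22 over 24 promoters was 0.69 for H3K4me3 and 0.60 for H3K9/14ac. Without Nhlh1 and Nt5dc2 it was 0.87 and 0.85 over 22 promoters. These promoters were left out because of their values, so the coefficients are descriptions, and the promoters of a library share its shift.

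The next question was whether the marks changed together. Of the 19 promoters tested in both, 2 were called lower in both (Nhlh1 and Nt5dc2), 1 higher in both (Arc) and 0 in opposite directions. Another 2, among them Elavl2, were called in H3K4me3 alone, and 0 in H3K9/14ac alone. The changes had the same sign at 15 of 19 promoters, with 8 lower in both marks and 7 higher in both. Cda and Cplx3, counted as higher in both, passed the H3K4me3 filter only through cKO libraries. They also enter the coefficients below. At the other 4, namely Duox2, Timp2, Sfrp4 and As3mt, H3K4me3 was higher and H3K9/14ac lower at P22 by at most 0.36. Across the 19 promoters the changes had a Pearson coefficient of 0.93 and a Spearman coefficient of 0.94. Without Nhlh1 and Nt5dc2 these were 0.87 and 0.92 over 17 promoters. The marks come from different libraries, but promoters of a library share its shift and the labels do not say whether the marks share chromatin preparations.

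Separation of the libraries was counted from the same scores, so it is no further support, and it took in more promoters than the fits called. With 2 libraries per age, full separation reaches only p = 0.333 in an exact permutation test. For H3K4me3 both P22 libraries lay below both P6 libraries at 6 of 24 promoters (25%) and above at 7 (29.2%). Several of those above scored low: Casq1 and Mslnl had no H3K4me3 score above -0.23, Cplx3 none above 0.19 and Cda none above 1.45. For H3K9/14ac the P22 libraries lay below at 9 (37.5%) and above at 6 (25%). All 6 promoters below in H3K4me3 were also below in H3K9/14ac: Nhlh1, Nt5dc2, Elavl2, Oprl1, Scn3b and Smoc1. Another 4, among them Arc, Cpne7 and Cplx3, were above in both, but Cplx3 had no score above 0.34 in either mark. Opposite separations occurred at 1 promoter, Mslnl, where all scores were near 0.

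**Figure D3:**
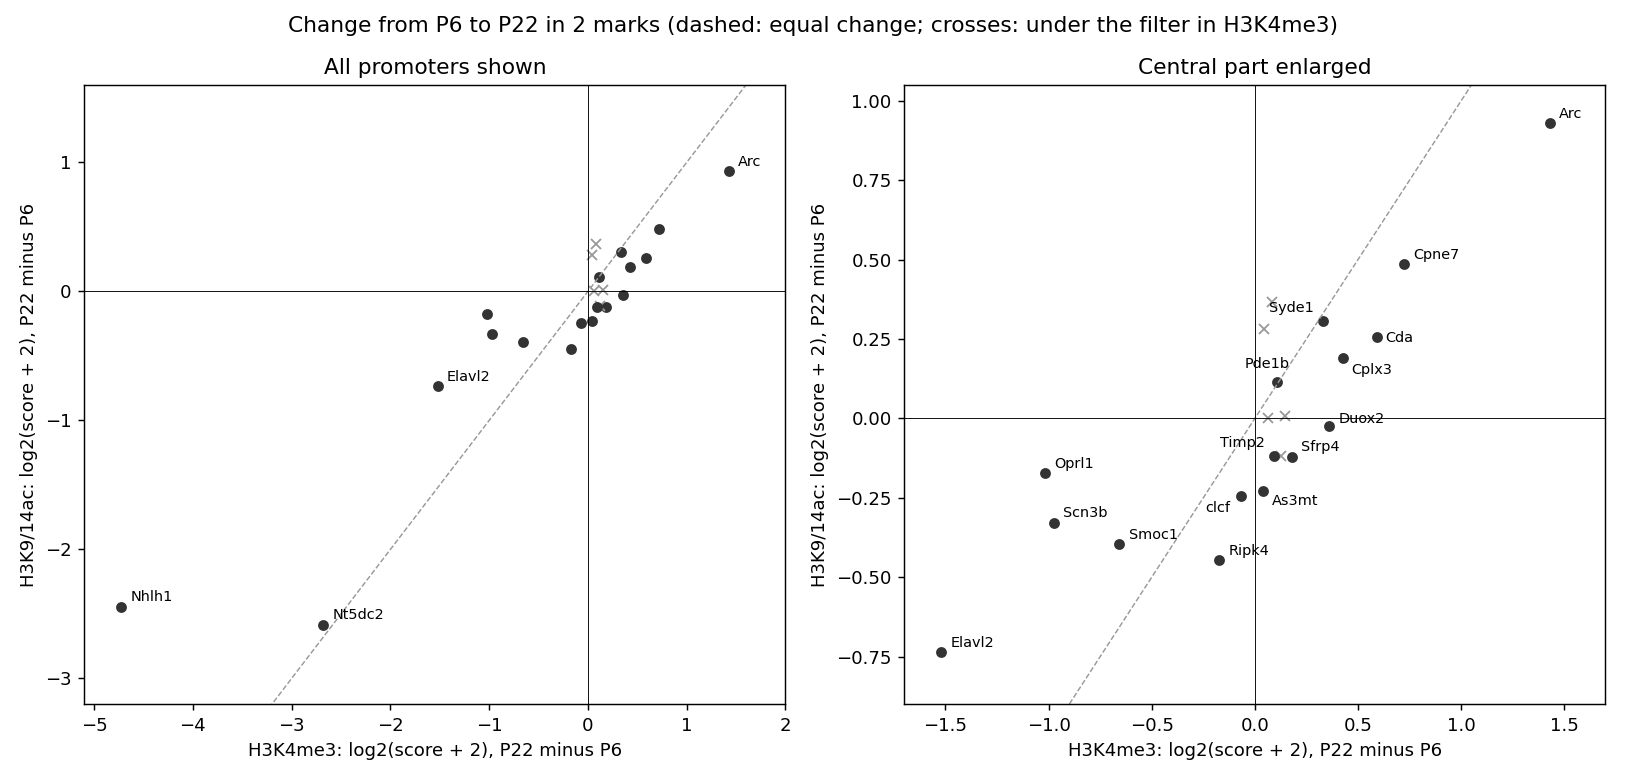
Change from P6 to P22 in H3K9/14ac (vertical) against H3K4me3 (horizontal) on the log2(score + 2) scale, 1 point per promoter; the right panel enlarges the centre, the dashed line marks equal change and crosses are promoters under the H3K4me3 filter. Most points lie at the lower left or the upper right, Nt5dc2 sits on the line of equal change, and Nhlh1 lies far from it with -4.72 in H3K4me3 and -2.45 in H3K9/14ac.

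The marks differed in the size of the change at 1 of 23 promoters (4.35%), tested as the interaction of age and mark over the 8 WT libraries. This was Nhlh1, where H3K9/14ac fell by less than H3K4me3, by a difference of 2.28 (95% interval 1.53 to 3.02, limma adjusted p = 0.00333). Its scores averaged 43.5 in H3K4me3 and 11.3 in H3K9/14ac at P6, and -0.28 and 0.46 at P22. With both marks near 0 at P22, the size of each fall on this scale largely follows its P6 score. The difference therefore does not show that 1 mark was lost more completely. At Nt5dc2 the difference was 0.10 (95% interval -1.16 to 1.35). At Elavl2 and Oprl1 it was 0.78 and 0.85 (limma adjusted p = 0.141 and 0.165), and without H3K4me3 P6 replicate 1 Oprl1 passed as well. At Arc the difference was -0.50 (95% interval -1.58 to 0.58). The change was larger in H3K4me3 at 14 of 19 promoters, but the unit of the score may differ between marks. Without the log scale, or with the spread of each promoter taken alone, 0 promoters were called at adjusted p under 0.05, against 1 in the fit reported. In the fit reported, 4 promoters had an unadjusted p under 0.05 (limma).

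Acetylated lysine 27 (H3K27ac), a mark of active promoters and enhancers, was measured in WT at P22 and gives a further reading of the endpoint. Nhlh1 had H3K27ac scores of -0.04 and 0.57, and Elavl2 of -0.40 and -0.03, so the lost promoters with a value lay near 0 in all 3 marks. Nt5dc2 has no H3K27ac value. Arc had the highest mean of 23 promoters, as in H3K9/14ac, with 14.4 and 8.63. In replicate 2 Oprl1 was slightly higher. Ripk4 stood apart with H3K27ac scores of 0.01 and 0.04 beside H3K4me3 scores of 6.80 and 8.95. Hmcn2, a hemicentin gene of extracellular matrix, and Gnb3 were the reverse. Hmcn2 had H3K4me3 scores of -0.10 and -0.50 and H3K27ac scores of 3.51 and 4.41 at P22. Gnb3 had -0.52 and -0.38 in H3K4me3 and 3.52 and 3.01 in H3K27ac. Oprl1 ranked 3 of 23 in H3K27ac with 6.92 and 8.86, while its H3K4me3 ranked 13 of 24. Across 23 promoters, H3K27ac at P22 had a Spearman coefficient of 0.88 with H3K9/14ac and 0.61 with H3K4me3 at P22. With the scores at P6 the coefficients were 0.55 and 0.35. These are descriptions over promoters of the same libraries.

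**Figure D4:**
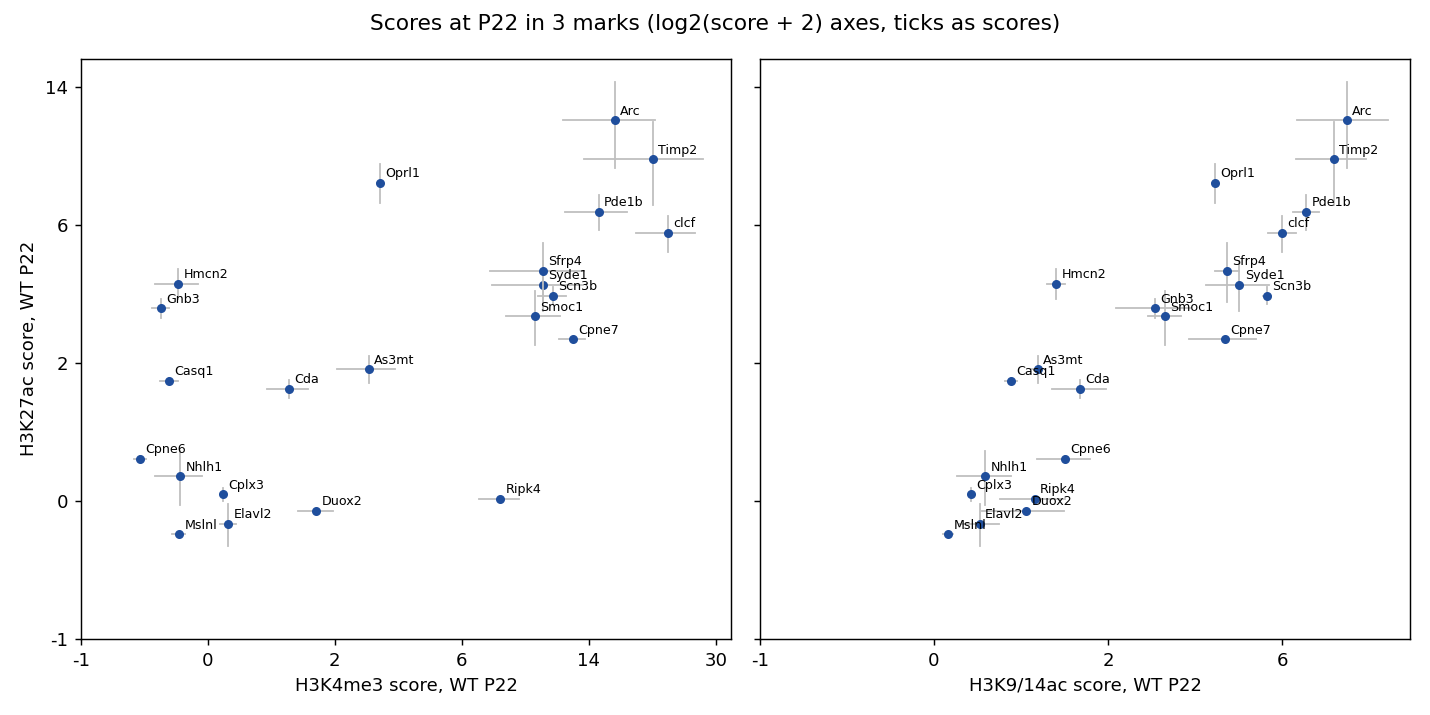
H3K27ac score in WT at P22 (vertical) against H3K4me3 (left) and H3K9/14ac (right) at the same age, on log2(score + 2) axes with ticks as scores; points are means and grey lines span the 2 libraries. Arc and Timp2 are high in all 3 marks, Nhlh1 and Elavl2 are near 0, and Ripk4 is at 0.025 in H3K27ac with an H3K4me3 mean of 7.88.

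The promoter windows printed above show no common level of CpG content among the promoters that lost H3K4me3. The ratio of observed to expected CpG was 0.084 at Nhlh1, 0.876 at the upstream and 0.295 at the downstream Nt5dc2 start, and 0.410 to 0.791 over the 6 annotated Elavl2 starts, some of which overlap. Over all 32851 RefSeq windows the median was 0.384, with quartiles of 0.176 and 0.75. Timp2, whose mean H3K4me3 score was 19.6 at P6 and 20.7 at P22, had 0.718. Hmcn2 had a ratio of 0.696 and H3K4me3 scores under 0 in all 4 libraries. Over the 14 promoters the Spearman coefficient of the ratio (mean over a gene's windows) with H3K4me3 was 0.24 at P6 and 0.39 at P22, and with the change it was -0.04. At n = 14 these are weak relations and no more than a description. They leave out Arc, Cpne7, Scn3b and Smoc1, among others without a window. The E-box CANNTG, bound by basic helix-loop-helix factors and searched on both strands, was present in a window of 11 of the 14 genes and in 72.3% of all RefSeq windows. Its forms CAGATG and CAGCTG, counted within it, occurred in 3 and 4 genes and in 17.15% and 16.3% of all windows. Nhlh1 held 1 CAGATG, and Elavl2 held CAGCTG at 3 of its starts. The motif TATAAA was found in 2 genes, Oprl1 and Pde1b, and in 13.6% of all windows. TGACGTCA, the cyclic AMP response element, was found in 0 of 14 genes and in 1.79% of all windows, and CCGCCC, a GC box, in 8 genes and in 35.7%. Arc is not among the 14 genes, so whether its promoter holds any of these motifs was not examined. For every motif a gene was counted if any of its windows held it, over 24 windows of the 14 genes. The RefSeq shares are per window, so the gene counts run higher and are not directly comparable.

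**Figure D5:**
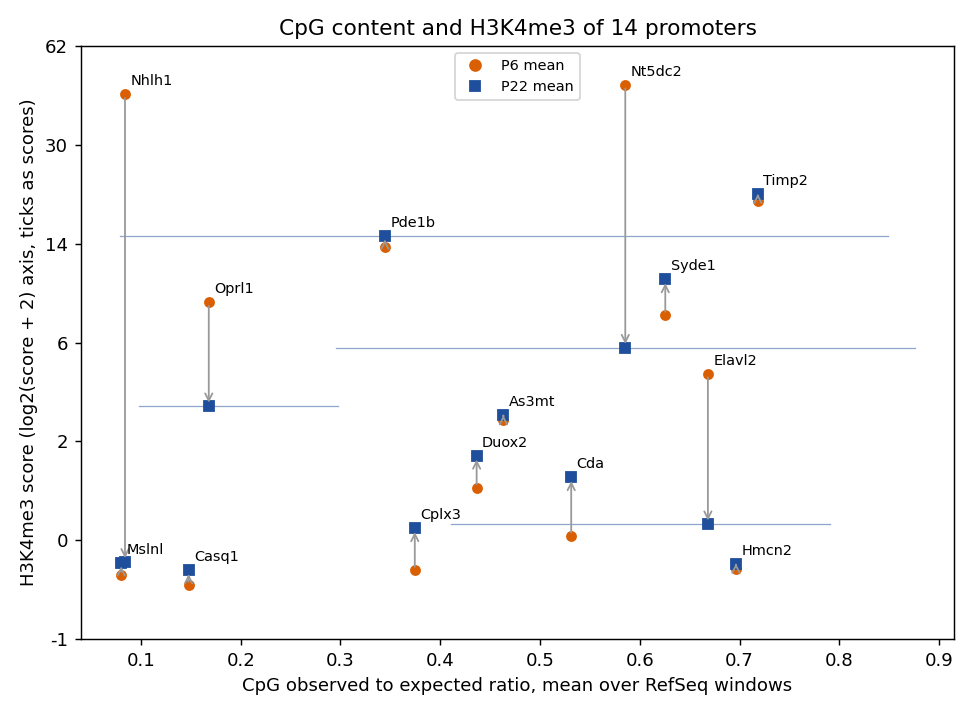
Mean H3K4me3 score at P6 (orange circles) and P22 (blue squares) of 14 promoters against the observed to expected CpG ratio of their RefSeq windows, on a log2(score + 2) vertical axis; arrows run from P6 to P22 and thin lines span the ratios of genes with several starts. Nhlh1 falls at a ratio of 0.084 and Nt5dc2 at a mean ratio of 0.586, while Hmcn2 stays near 0 at 0.696.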

How the data were processed

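Per the labels' protocols, sonicated chromatin of cross-linked cerebella went into immunoprecipitation and Illumina sequencing. The submitters' processing notes name BWA and mm9 but no settings. The authors' deposited table gives a score per TSS and library; scores fall below 0, and neither background step nor scaling is stated. Depth is unknown, so no counting interval was computed. Where a WT column carries no age, it was taken as P22, the age the labels give all other WT samples.

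Members and gene groups were chosen with earlier results of these data known. All 23 reported promoters are accounted for; values per library are given for those called in either mark and for the 5 largest changes in each mark that were not called, except 1 promoter not reported here. The fit was limma 3.58.1 (R 4.3.3) on log2(score + 2), all 6 libraries of a mark, no covariates, promoters with a score of at least 1 in at least 2 of these, Benjamini-Hochberg adjusted p under 0.05. The spread was pooled completely over promoters, and promoters sharing a library's shift are not independent, so p-values may be too small. The difference between marks was an interaction term over the 8 WT libraries. The exact permutation test of 2 libraries against 2 cannot go below p = 0.333 and was not used. Fits were tested on simulated data. Of the 23 names, 22 matched a RefSeq symbol of GRCm38.p6. Inputs and the authors' mean curves, which have no P6 column, were not used here. Alternatives: pseudocounts of 1 and 20, no filter, replicate block, WT libraries alone, no log, each promoter's own spread, 2 ways of centring, and each library left out. With each promoter's own spread, p-values came from an ordinary t-test on the linear fit, without pooling.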

Additional observations from a re-analysis of the deposited data

Results flagged for a closer look

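The P6 to P22 change at Nhlh1 differed between the marks: the H3K9/14ac change minus the H3K4me3 change was 2.28 on the log2(score + 2) scale, a difference that passed the test of the interaction between age and mark (limma adjusted p = 0.00333). Scores at P22 were under 1 in all 4 libraries concerned, so the difference largely reflects how high each mark scored at P6. It passed with each of the 8 libraries left out in turn and with pseudocounts of 1 and 20, and it did not pass without the log scale or with the spread of each promoter taken alone.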

How the results depend on the processing

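Nhlh1 was called lower in both marks under every alternative run. Counts below are lower and higher calls at P22 (limma), against 3 and 2 for H3K4me3 and 2 and 1 for H3K9/14ac in the fit reported. The replicate block gave 6 and 4 for H3K4me3 and 4 and 3 for H3K9/14ac, and 4 calls for the difference between marks. With the block, H3K4me3 at Oprl1 (limma adjusted p = 0.000386), Scn3b (0.000585), Cpne7 (0.01), Smoc1 (0.0184) and Cda (0.0329) passed as well, as did H3K9/14ac at Elavl2 (0.000777), Cpne7 (0.0328) and Ripk4 (0.0492). Deviations of same-numbered replicates were positively correlated in each pair of groups: 0.40 for P6 with P22, 0.58 for P6 with cKO and 0.74 for P22 with cKO in H3K4me3, and 0.24, 0.34 and 0.22 in H3K9/14ac. Replicate 2 was the higher library by its median log2 difference in every group, and whether the replicates are paired was not tested. The labels attach no meaning to the number and each group has 2 numbers, so the unblocked fit is the one reported. With the WT libraries alone, H3K4me3 fell at 5 promoters. A pseudocount of 20 gave 0 higher calls in each mark. A pseudocount of 1 gave 2 calls for the difference between marks. Without the filter, 1 promoter was higher in H3K4me3. The score without log gave 1 lower and 0 higher in each mark. Each promoter's own spread gave 0 higher calls in each mark and 1 lower call in H3K9/14ac. Both gave 0 calls for the difference between marks. Centring on the median of all promoters, which added 0.31 to H3K4me3 changes and 0.04 to H3K9/14ac changes, gave 5 and 8, and 5 and 5. Centring on the promoters tested, chosen after seeing the data, gave 6 and 4, and 4 and 2. Each centring gave 2 calls for the difference between marks, and lowered the standard error of an H3K4me3 change from 0.43 to 0.13 and 0.09. Why calls differed under any of the alternatives was not tested. With 1 library left out, the lone library being assumed to vary like the others, H3K4me3 lower calls ranged from 2 to 3, higher calls from 1 to 2, H3K9/14ac lower calls stayed at 2, higher calls ranged from 0 to 2, and calls for the difference from 1 to 2.

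Signs turned only at promoters not called. Centring on all promoters turned H3K4me3 at Ripk4 to 0.136 and at clcf to 0.243, and H3K9/14ac at Duox2 to 0.01. Centring on those tested turned H3K4me3 at As3mt to -0.0137, and H3K9/14ac at Casq1 to -0.0536 and at Cpne6 to -0.0584. With a pseudocount of 1, H3K9/14ac at Cpne6 was -0.000897. With a library left out, H3K4me3 changes ranged from -0.443 to 0.63 at Timp2, -0.146 to 0.362 at Pde1b, -0.19 to 0.269 at As3mt, -0.299 to 0.168 at clcf, -0.0271 to 0.692 at Syde1 and -0.189 to 0.549 at Sfrp4. H3K9/14ac changes ranged from -0.262 to 0.211 at Duox2, -0.0746 to 0.303 at Pde1b, -0.32 to 0.0841 at Timp2, -0.308 to 0.0674 at Sfrp4, -0.15 to 0.156 at Cpne6, -0.54 to 0.0502 at clcf and -0.027 to 0.0421 at Casq1. Among the values of single promoters under an alternative, 440 kept direction and side of the threshold, 34 passed newly, 19 no longer passed and 27 changed sign. Unknown depth and 2 libraries per group limit what can be called.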
